A study of Mus musculus with 2 samples.

Results

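The cells described here carried unusually few transcripts from chromosome 11, in mouse gastruloids collected at day 2.5. They were chosen by measured values. In each barcode with at least 6000 UMIs (molecular tags, each standing for 1 captured transcript) and at most 10% mitochondrial UMIs, the UMIs of 27 chromosome 11 genes, called the markers below, were summed and divided by the total of the cell. Cells at or under 0.8 times the median share of all kept cells were members, and cells over 0.9 were the comparison cells. The rule took 1649 of 17494 kept cells. These were 1083 of 8119 in the library labelled wild type, or 13.3% (12.6 to 14.1), and 566 of 9375 in the library labelled double knockout, or 6.04% (5.56 to 6.54). A further 997 and 1164 cells lay between the limits and 6039 and 7645 were comparison cells. Intervals in parentheses are 95% intervals, exact binomial for shares of cells and exact conditional Poisson for ratios of UMI sums, and cover counting error only.

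Gastruloids are aggregates of embryonic stem cells that begin to form the germ layers and the body axis in culture. R1 mouse embryonic stem cells, either unedited or labelled as double mutants of Sp5 and Sp8, which encode transcription factors, were aggregated at 300 cells each in serum-free N2B27 medium for 48 hours. Both genotypes then received 3 µM CHIR, a GSK3 inhibitor that switches on canonical Wnt signalling, for 12 hours, and aggregates were pooled into 1 library per genotype. With 2 libraries there is no replicate check and no test of any difference, whether between cell groups or between libraries. Sp5 and Sp8 transcripts were counted in both libraries and were higher in the one labelled double knockout, where Sp5 stood at 488.8 CPM (counts per 1000000 UMIs of a cell group) in comparison cells against 104.7 CPM in the other. The names of the libraries are therefore used only as labels, and no direction below stands for loss of these genes.

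Mouse chromosome 11 is a gene-dense chromosome that encodes the tumour suppressor p53, the Wnt ligands Wnt3 and Wnt3a, the Hoxb cluster and many housekeeping proteins. In a cell, transcript output of a chromosome generally follows the number of its copies, and cultured mouse embryonic stem cells are known to gain or lose whole chromosomes. A low share of the transcripts of a chromosome can also come from the cell state, since genes of a chromosome are not a random sample of functions. RNA counts alone do not measure copies, and no DNA was measured here.

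The markers themselves were low by the choice of cells. Their ratios of CPM, members over comparison cells of the same library, ran from 0.572 to 0.994 with a median of 0.702 in the library labelled wild type. In the other library they ran from 0.579 to 0.915 with a median of 0.704. By the mean log2 ratio of the 2 libraries the lowest were Actg1 (cytoplasmic actin), Phb (prohibitin) and Pfn1 (profilin, an actin-binding protein), and the highest were the splicing factors Srsf2, Srsf1 and Hnrnph1. Hnrnph1 stood at 345.3 CPM in members and 347.6 CPM in comparison cells of the library labelled wild type, so a low marker total did not require every marker to be low.

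The other genes of chromosome 11, which did not enter the rule, check the label. Their summed share in each cell was divided by the median of all kept cells. The first library, labelled wild type, had a median of 0.722 in members, with quartiles of 0.700 and 0.751, against 1.01 in comparison cells, whose 5th percentile was 0.934. The values of the library labelled double knockout were 0.727 (quartiles 0.688 and 0.938) against 1.01 (5th percentile 0.939). The distribution of shares over cells had 2 peaks. A share at or under 0.85 was found in 976 members, or 90.1% (88.2 to 91.8), of the first library and in only 97 comparison cells, or 1.61%. In the second library 400 members, or 70.7%, and 27 comparison cells, or 0.353%, were that low.

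**Figure D1:**
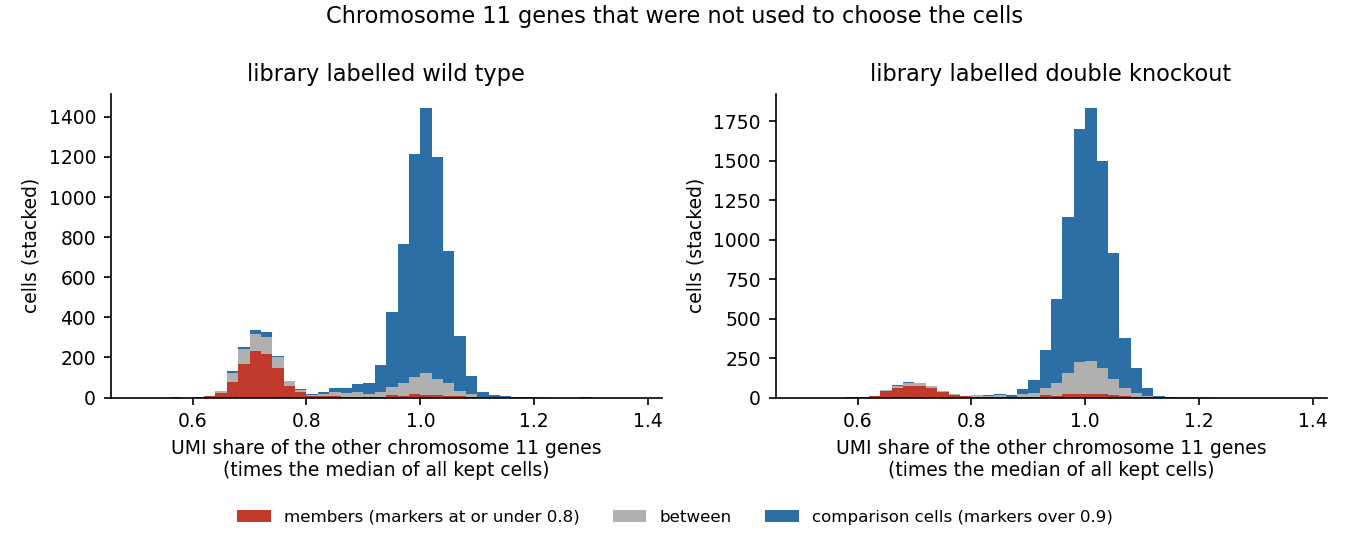
Number of cells (y axis, stacked) by UMI share of the chromosome 11 genes that were not markers (x axis, times the median of all kept cells), with members in red, cells between the limits in grey and comparison cells in blue. Members form most of a separate peak, with medians of 0.722 and 0.727, and the other 107 and 166 members have medians of 0.996 and 0.999, in the main peak.

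The label thus held for most members and not for 107 and 166 of them, whose other chromosome 11 genes had median shares of 0.996 and 0.999. Such cells were low on the markers alone. Conversely, the other genes were at or under 0.85 in 1486 kept cells, or 18.3%, of the library labelled wild type, of which 65.7% were members, and in 527, or 5.62%, of the other, of which 75.9% were members. The limit of 0.8 cut through the low group of the first library. Among its 91 cells with marker shares from 0.79 to 0.80, 73.6% were low on the other genes, and among the 83 cells from 0.80 to 0.81 just outside, 71.1% were. In the second library these were 36.8% of 38 cells and 23.7% of 59.

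Of 2060 other chromosome 11 genes, 1656 had a UMI in a kept cell and 610 had a mean of at least 10 CPM over members and comparison cells in each library, and these were compared gene by gene. Of the 610 genes, 585 were lower in members and 25 higher in the library labelled wild type, with a median log2 ratio of -0.39 (a ratio of 0.762). In the other library 567 were lower and 43 higher, with a median of -0.31 (a ratio of 0.804). The middle 90% of genes spanned ratios from 0.604 to 0.979 and from 0.646 to 1.03. Summed over the 610 genes, 72559 CPM in members stood against 97394 in comparison cells of the first library, a ratio of 0.745, and 77254 against 97710 in the second, a ratio of 0.791.

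A ratio at or below 0.8 in both libraries was reached by 265 of these 610 genes, or 43.4%, where 4.47% of all 7468 genes past the same filter reached it and 1.01% of the 6858 genes of other chromosomes did. By library the counts were 396 genes (64.9%, against 10.1% of all genes) and 300 (49.2%, against 6.2%). The upper limit, the inverse of 0.8, was reached in both by 1 gene, Sparc, or 0.164%, where 5.45% of all genes reached it. With members limited to the cells whose other chromosome 11 genes were also low, a limit chosen after seeing the data that fixes the direction, 411 of 601 genes (68.4%) were at or below 0.8 in both, and the medians were -0.47 and -0.50. Log2 ratios of the 610 genes had a Pearson correlation of 0.673 between the 2 libraries, across genes, which are not independent replicates. Off chromosome 11 the correlation was similar, at 0.645, so it was not particular to chromosome 11. Of the 610 genes, 553 were below 0 in both. Genes of the other chromosomes had median log2 ratios of 0.08 and 0.06, slightly above 0. CPM values sum to a fixed total, and with scaling to the UMIs off chromosome 11 these medians were 0.02 and 0.01 and those of chromosome 11 -0.45 and -0.36.

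The low level ran along the whole chromosome. In the 13 windows of 10 Mb, each holding 8 to 87 genes, the median log2 ratio lay between -0.49 and -0.26 in the library labelled wild type and between -0.40 and -0.19 in the other. The markers span the chromosome only from Npm1, which starts at 33152287, to Arhgdia, which ends at 120581624 (GRCm38). The 99 genes before Npm1 had medians of -0.37 and -0.30, and the 22 genes beyond Arhgdia had medians of -0.41 and -0.37, so regions without a marker were as low as the 489 genes between, at -0.40 and -0.32.

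**Figure D2:**
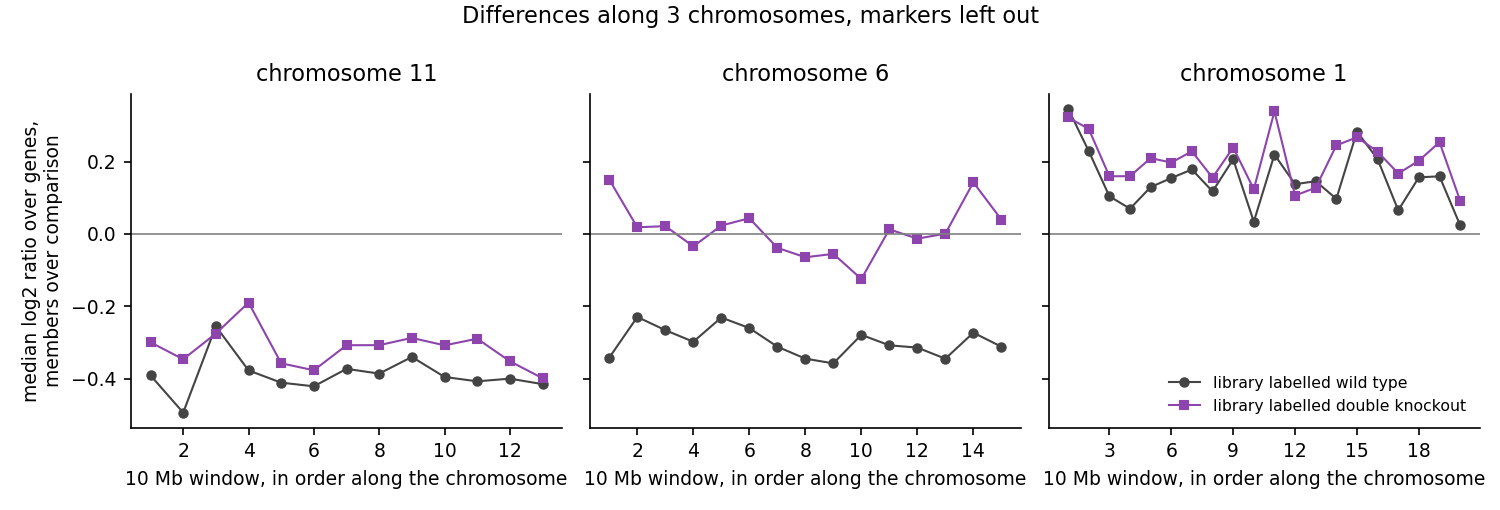
Median log2 ratio over genes (y axis, members over comparison cells, markers left out) in successive 10 Mb windows (x axis) of chromosomes 11, 6 and 1, by library. All 13 windows of chromosome 11 lie below 0 in both libraries, all 15 windows of chromosome 6 lie below 0 only in the library labelled wild type, and all 20 windows of chromosome 1 lie above 0 in both.

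Trp53 (ENSMUSG00000059552, plus strand of chromosome 11 from 69580359 to 69591873) encodes p53, the transcription factor that restrains cells with DNA damage or an abnormal chromosome number. It stood at 380.2 CPM in members against 468.0 in comparison cells of the library labelled wild type, a log2 ratio of -0.30 (-0.35 to -0.25). The second library had 380.3 against 483.7 CPM, or -0.35 (-0.41 to -0.28). Both values are near the chromosome 11 median. Its target genes did not share 1 direction. Ccng1, a p53 target that lies on chromosome 11 itself, was at -0.77 and -0.40, a larger difference than the median of its chromosome in both libraries. The 18 measured targets on other chromosomes had medians of -0.09 and 0.02, against 0.08 and 0.06 for all genes off chromosome 11. Of the 18 targets, 12 and 6 were below 0 and 6 and 12 above 0, where 65.1% and 63.4% of all genes off chromosome 11 were above 0. No target among the 18 was past the lower or upper limit in both libraries. Phlda3, an inhibitor of Akt signalling, was at -0.46 and -0.25, and Mdm2, the ubiquitin ligase that degrades p53, was at -0.23 and -0.14, the latter turning to 0.06 with a minimum of 4000 UMIs.

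CHIR switches on canonical Wnt signalling, and several genes of that pathway lie on chromosome 11. Axin2, a negative feedback gene of the pathway, was at 74.1 against 86.2 CPM and at 65.3 against 77.4 CPM, log2 ratios of -0.22 and -0.24. Tcf7, a nuclear effector, was at -0.40 and -0.52. Wnt3, the ligand needed for primitive streak formation, was at -0.45 and -0.15, and the second interval (-0.35 to 0.03) held 0. Znrf3, which removes Wnt receptors from the cell surface, was at -0.07 and 0.01. The 6 measured feedback genes on other chromosomes were on the opposite side of 0, with medians of 0.41 and 0.14, all 6 above 0 in the first library and 5 in the second, where 65.1% and 63.4% of the 6858 genes off chromosome 11 were above 0. Lef1, another nuclear effector, was at 0.52 and 0.41, and Sp8 at 0.87 (33.4 against 18.3 CPM) and 0.47 (55.7 against 40.3 CPM). Sp5 was at 0.31 and 0.04. Among cells over 0.8 on chromosome 6 its value in the first library was -0.03.

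Many chromosome 11 products work inside complexes whose other subunits are encoded elsewhere, so the same complex could be compared within and outside the chromosome. The members had lower transcripts of the chromosome 11 subunits, while the other subunits differed less. Those of the proteasome and the respiratory chain were nevertheless under the level of all genes off chromosome 11. Of the cytosolic ribosomal proteins, the 7 on chromosome 11 had medians of -0.45 and -0.33, and 5 were at or below 0.8 in both libraries, beside 43.4% of all chromosome 11 genes compared. The 75 others had medians of 0.08 and 0.06, and no one of them was past either limit in both. Rpl27 stood at 3960 against 5854 CPM and at 4210 against 5475 CPM, and Rpl26 at 2822 against 3944 and 3087 against 4024. Ribosomal protein genes have many processed pseudogenes, which makes the values of single ones less certain.

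In the respiratory chain and ATP synthase, the 4 chromosome 11 genes outside the markers (Uqcr10, Uqcrq, Cox11 and Atp5g1) were all at or below 0.8 in both libraries, against the same 43.4% of the chromosome, with medians of -0.47 and -0.43. The 72 genes elsewhere had medians of -0.01 and 0.01, against 0.08 and 0.06 for all genes off chromosome 11, and no gene among them passed a limit in both. Uqcrq, a subunit of complex III, stood at 288.2 against 400.0 CPM and at 333.6 against 467.4 CPM. For the proteasome, which degrades tagged proteins, Psmd11, Psmd3 and Psme3 had medians of -0.36 and -0.39. The 35 proteasome genes of other chromosomes were slightly low as well, with medians of -0.04 and -0.07 and 21 and 31 of them below 0. Above 0 were 14 and 4 of them, where 65.1% and 63.4% of all genes off chromosome 11 were.

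Spliceosome genes on chromosome 11 (Sf3a1, Prpf8, Eftud2 and Ddx42) had medians of -0.31 and -0.30, against 0.09 and 0.03 for the 53 elsewhere. Eftud2, a GTPase of the U5 particle, was lowest at -0.51 and -0.45. In the list of S phase genes, Rpa1 (single-strand DNA binding), Cdc6 (origin licensing), Brca1 (homologous recombination) and Tk1 (thymidine kinase) were all at or below 0.8 in both libraries, against 43.4% of chromosome 11 genes, with medians of -0.51 and -0.57. These counts cover a few genes each. Brca1 stood at 46.6 against 72.5 CPM and at 44.5 against 68.8 CPM. The 29 S phase genes elsewhere had medians of 0.07 and -0.05. Polycomb genes, which keep developmental genes silent, had medians of -0.34 and -0.38 on chromosome 11 (Suz12, Pcgf2 and Cbx2) and of 0.14 and 0.11 over 17 genes elsewhere.

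**Figure D3:**
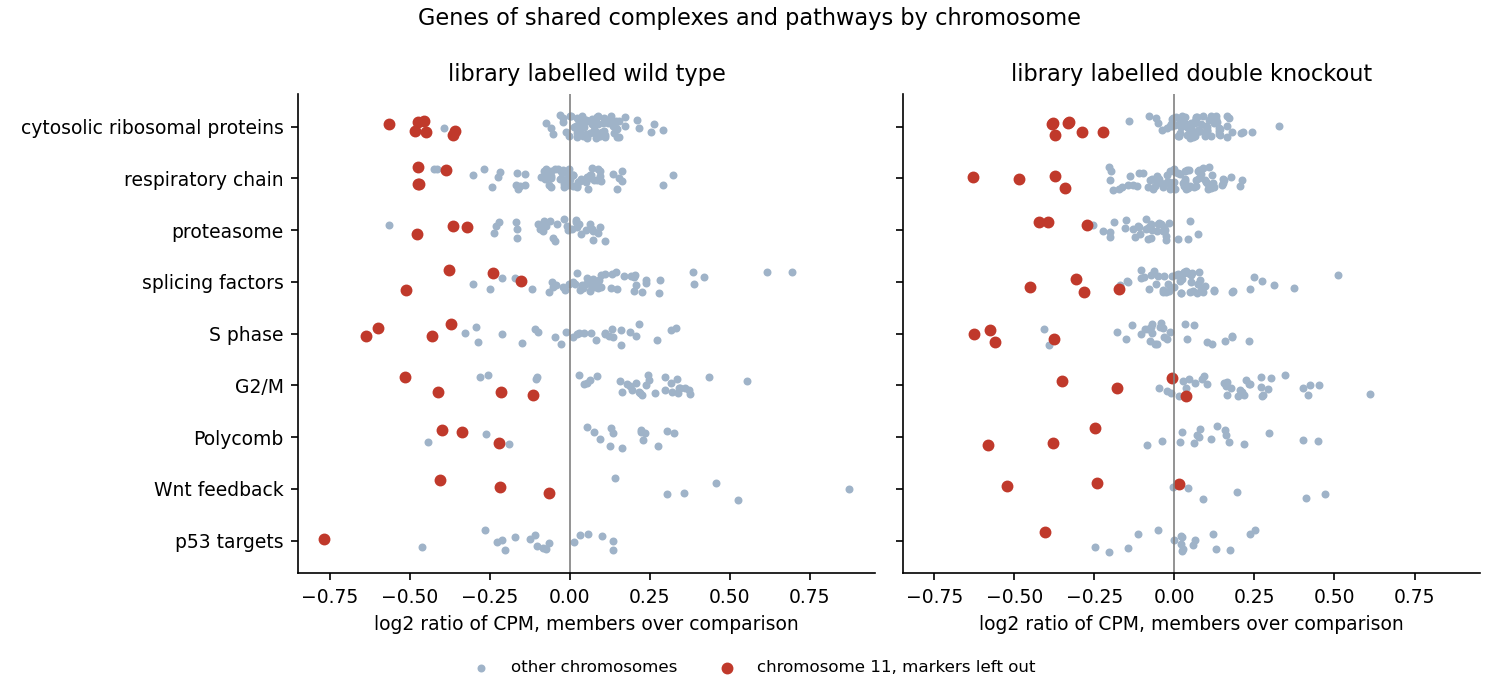
Log2 ratio of CPM, members over comparison cells (x axis), for each gene of 9 lists (y axis), in red for chromosome 11 genes outside the markers and in blue-grey for genes of other chromosomes, by library. The chromosome 11 genes sit to the left of the rest of their list, for example -0.45 against 0.08 in the medians of ribosomal protein genes of the library labelled wild type, with Znrf3, Hmmr and Top2a near 0 in the library labelled double knockout.

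Mitotic genes gave a more mixed picture. Birc5 (survivin) and Aurkb, both parts of the chromosomal passenger complex that guards chromosome segregation, lie on chromosome 11. Birc5 stood at 310.2 against 443.1 CPM and at 334.0 against 426.5 CPM, log2 ratios of -0.51 and -0.35. Aurkb was at -0.41 and -0.18. Top2a, which untangles DNA before division, was at -0.21 and -0.01, and Hmmr, a spindle protein, at -0.11 and 0.04. Against this, the 35 G2/M genes of other chromosomes had medians of 0.23 and 0.21, above the medians of all genes off the chromosome, with 31 and 32 of them above 0, against 65.1% and 63.4% of those genes. At or above the upper limit in both libraries were 5 of the 35, beside 5.92% of all genes off chromosome 11. The highest named were Nusap1, a microtubule-binding protein, at 0.55 and 0.61, and Tpx2, an activator of the mitotic kinase Aurka, at 0.43 and 0.40.

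Other chromosome 11 genes of general function followed the chromosome only in part. Fasn (fatty acid synthase) was at -0.55 and -0.38, Rack1 (a ribosomal scaffold) at -0.44 and -0.35 and Skp1a (a ubiquitin ligase subunit) at -0.38 and -0.36. Xpo1, the main nuclear export receptor, was at -0.07 and -0.22 and turned to 0.003 and 0.01 in the first library among cells without a T UMI and among cells over 0.8 on chromosome 6. Ewsr1, an RNA-binding protein, was at -0.09 and -0.08. Kpna2, an import receptor, was at -0.47 in the first library and 0.05 in the second. The imprinted gene Grb10, which restrains growth factor signalling, was at 68.8 against 68.1 CPM in the first library and at 7.75 against 10.5 in the second. It was below the filter in the second library and so outside the 610 genes, as were Stat3, Lhx1, Meis1, Sox9, Socs3 and Hoxb1, which had at most 98 UMIs in the members of either library.

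The lowest chromosome 11 genes, ranked by the library with the smaller difference, were Igfbp4, Nefh, Gdpd1, Mrm3, Gngt2, Nt5c3b, Ogfod3, Zmat5, Fbxl20 and Mxra7. Igfbp4, which binds insulin-like growth factors, stood at 6.40 against 15.9 CPM and at 8.16 against 15.9 CPM, log2 ratios of -1.30 and -0.94. Nefh, a neurofilament subunit, was at 15.1 against 37.4 and 15.3 against 28.9 CPM. The other 8 lay between -0.90 and -0.70 in both libraries. Their counts in members ran from 44 to 285 UMIs, so the ends of the ranking were set partly by counting error.

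At the other end were Sparc, Tug1, Bcl11a, Fnip1 and Kdm6b. Tug1, Bcl11a, Fnip1 and Kdm6b were at 0.21 to 0.43 in both libraries, and all of these but Fnip1 overlap an annotated gene on the opposite strand, which makes their values less certain. The same holds for Axin2, Tcf7, Eftud2, Cox11, Rack1, Skp1a, Top2a, Tk1, Suz12, Psmd3, Ewsr1, Stat3, Meis1, Mrm3, Gngt2, Nt5c3b, Ogfod3, Zmat5, Srsf1 and Srsf2 on chromosome 11. Off it, it holds for Nusap1, Lef1, Evx1, Otx2, Fabp3, Col4a1, Col4a2, Klhl9, Epha7, Hspd1, Foxb1, Nkx1-2, Klk8, Fmr1nb and Gmfg. Sparc, a matrix protein abundant in parietal endoderm, stood at 112.1 against 56.4 CPM and at 159.4 against 57.1 CPM, log2 ratios of 0.99 and 1.48. That excess came from a very small number of cells. Cells with UMIs of at least 3 of 10 endoderm genes numbered 10 of 1083 members and 1 of 6039 comparison cells in the library labelled wild type. The corresponding numbers were 7 of 566 and 3 of 7645 in the library labelled double knockout. The 10 cells held 61.5% of the members' Sparc UMIs and the 7 cells 72.7%. Without such cells, Sparc was at -0.36 and -0.31, the level of its chromosome, and no chromosome 11 gene reached the upper limit in both libraries.

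Those 17 cells stood apart in genes outside the endoderm list too, named here after their values were seen. Col4a1 was at 2460 and 2935 CPM in them against 26.5 and 26.2 in comparison cells. Dab2, an endocytic adaptor of extraembryonic endoderm, was at 1207 and 1410 CPM against 4.35 and 4.18. It is 1 of the 10 endoderm genes that chose the cells, so its level was partly set by that choice. The type IV collagen genes Col4a1 and Col4a2 and the fatty acid binding protein gene Fabp3 were among the 10 highest genes off chromosome 11. Their log2 ratios were 1.2, 1.51 and 1.34 in the first library and 1.49, 1.70 and 2.10 in the second. Without the endoderm-gene cells they were 0.45, 0.61 and 0.13, and 0.09, 0.10 and 0.12. Col4a2 had 8.70 and 9.30 CPM in comparison cells, so it passed the filter of 10 CPM only through the members. The summed endoderm list was at 39.0 against 9.05 CPM and at 68.2 against 8.02 CPM. The lists for blood and endothelium (2.47 against 2.73 and 5.51 against 4.19 CPM) and for fibroblasts (3.84 against 7.29 and 4.49 against 6.19 CPM) were near 0 in members.

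The members were not limited to chromosome 11, and here the libraries differed. In the library labelled wild type, chromosome 6 was also low in members. Its 364 genes had a median log2 ratio of -0.31, 340 of them were below 0, and all 15 windows were below 0. The chromosome 6 median of the other library was 0.002, with 177 genes below and 187 above 0. Cells at or under 0.8 on chromosome 6 made up 72.8% (70.0 to 75.4) of members and 9.85% of comparison cells in the first library, and 31.6% (27.8 to 35.6) of members and 18.1% of comparison cells in the second. Low chromosome 6 was thus found in comparison cells with a usual chromosome 11 share as well. Chromosome 1 was higher in members, with medians of 0.14 and 0.20 over 414 genes, of which 316 and 368 were above 0. Genes off chromosomes 11 and 6 had medians of 0.09 and 0.06, and 65.1% and 63.4% of genes off chromosome 11 were above 0. In the first library the medians of the X chromosome (0.12) and chromosome 3 (0.11) were close to that of chromosome 1.

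**Figure D4:**
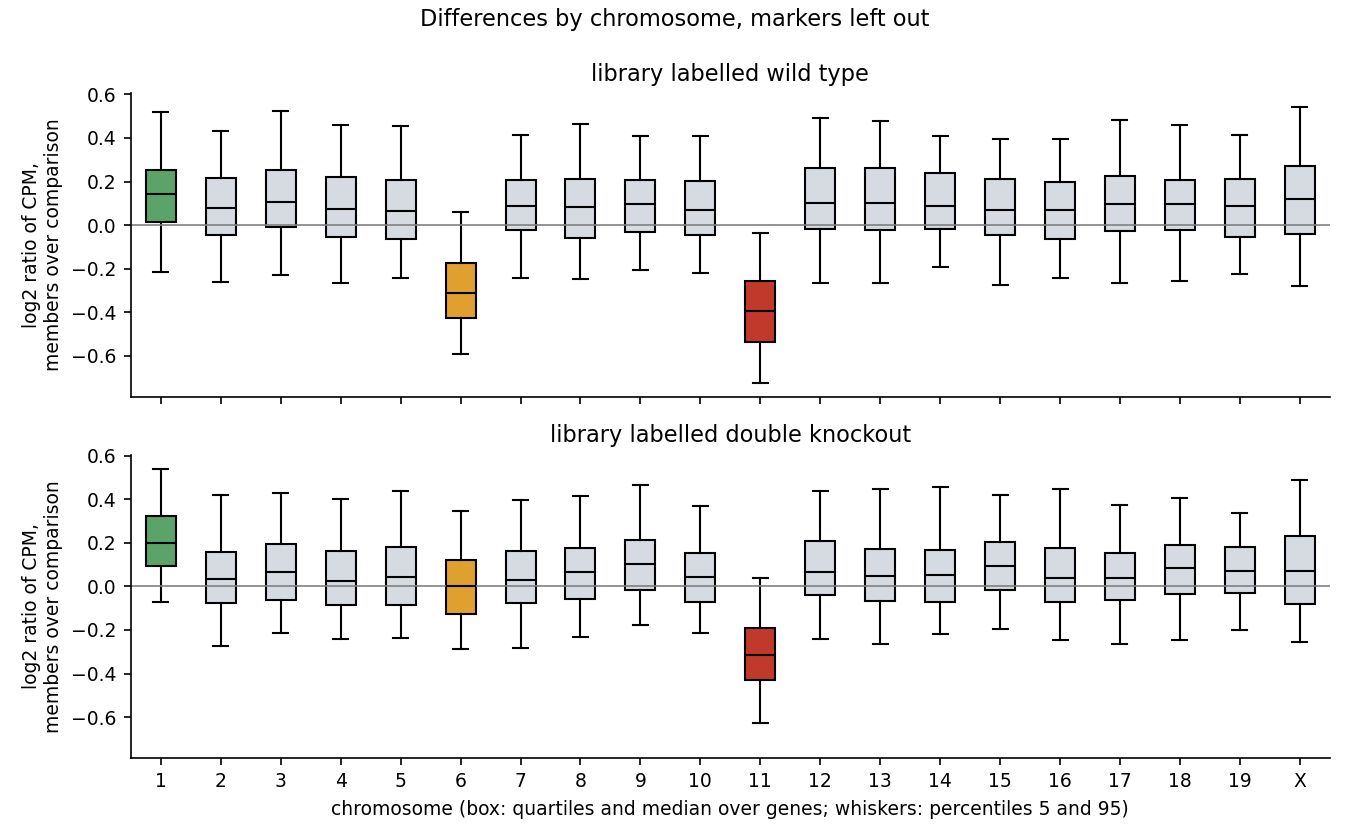
Log2 ratio of CPM, members over comparison cells (y axis), over the genes of each chromosome (x axis), with boxes for the quartiles, a line for the median and whiskers for percentiles 5 and 95, by library. Chromosome 11 (red) is low in both libraries at -0.39 and -0.31, chromosome 6 (orange) is low at -0.31 in the library labelled wild type alone, and chromosome 1 (green) is the highest median in both at 0.14 and 0.20.

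Single cells were then sorted by their shares of chromosomes 11, 6 and 1, whose low and high values partly overlapped. A chromosome 1 share over 1.2 times the median, a limit set after seeing the data, was found in 57 members, or 5.26%, of the library labelled wild type, against 0.232% of comparison cells. The other library had 148 such members, or 26.1% (22.6 to 30.0), against 0.759%. Of the 976 members of the first library whose other chromosome 11 genes were low, 737 were also at or under 0.8 on chromosome 6 and not high on chromosome 1. A further 48 were low on 6 and high on 1, and 9 were high on 1 without being low on 6. The remaining 182 had a median chromosome 6 share of 0.840, just over the limit. Chromosome 1 was also slightly higher outside the cells past 1.2, with a median share of 1.08 in the 737 members against 1.01 in comparison cells. That rise was not particular to chromosome 1. In the same 737 members chromosomes 3 and X had median shares of 1.10 and 1.10, against 1.00 and 1.01 in comparison cells.

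The 400 such members of the library labelled double knockout were divided otherwise. The largest set, 208 cells, was neither low on chromosome 6 nor high on chromosome 1, and its median chromosome 6 share was 1.10. Another set of 115 cells was both, with median shares of 0.695 on chromosome 6 and 1.44 on chromosome 1, and its chromosome 9 median was 1.18 and its chromosome 15 median 1.11. A set of 52 cells was low on chromosome 6 alone, and its chromosome 19 median was 1.31. The last 25 cells were high on chromosome 1 alone, at 1.5, with a chromosome 6 share of 1.02. Over all members of this library, shares over 1.2 were found on chromosome 19 in 86 cells (15.2%), on chromosome 9 in 63 (11.1%) and on chromosome 15 in 60 (10.6%). Comparison cells past these limits made up 3.99%, 0.0654% and 0.196%. The X chromosome was over 1.2 in 104 members (9.60%) and 1.61% of comparison cells of the other library.

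**Figure D5:**
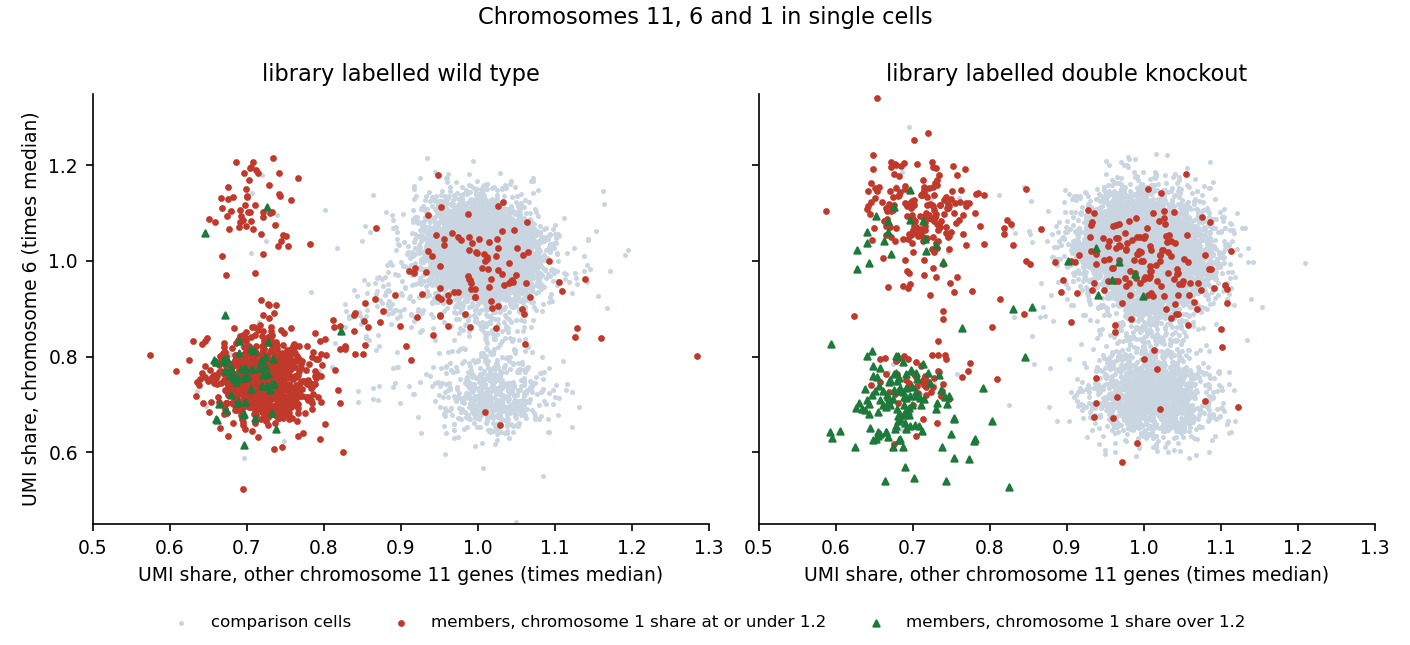
UMI share of chromosome 6 (y axis) against that of the other chromosome 11 genes (x axis), both times the median of all kept cells, for comparison cells (pale blue) and members with a chromosome 1 share at or under 1.2 (red) or over it (green triangles). In the library labelled wild type most members lie low on both axes, while in the other library they split into a set near 1.1 and a set near 0.7 on chromosome 6, the latter mostly green.

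The chromosome 11 difference was smaller without the cells at or under 0.8 on chromosome 6. In the first library this limit kept 182 members low on the other chromosome 11 genes, with a median chromosome 6 share of 0.840. Among the 295 and 387 members over 0.8 on chromosome 6, the chromosome 11 medians were -0.21 and -0.24, and 121 of 621 genes (19.5%) were at or below 0.8 in both libraries. In that selection 64.7% and 60.2% of members were low on the other chromosome 11 genes, against 90.1% and 70.7% of all members. Among the members at or under 1.2 on chromosome 1, 176 of 611 genes (28.8%) were at or below 0.8 in both, with medians of -0.39 and -0.24.

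Among the genes of developmental state, T (Brachyury), the transcription factor that marks the primitive streak and early mesoderm, was among the 10 highest genes off chromosome 11. It stood at 72.5 CPM in members against 33.4 in comparison cells of the library labelled wild type, a log2 ratio of 1.12 (1.00 to 1.23), and at 91.0 against 48.9 CPM in the other, a log2 ratio of 0.90 (0.75 to 1.04). With every cell thinned to 6000 UMIs, 27.6% (25.0 to 30.4) of members and 14.6% (13.7 to 15.5) of comparison cells of the first library had a T UMI. In the second these were 34.6% (30.7 to 38.7) and 21.3% (20.4 to 22.2). Cells with at least 3 neural genes, which should hold little T, had one in 8.22% and 8.72%. Before thinning the shares were 38.8% and 24.9%, and 40.5% and 30.8%.

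The T difference was found in the members low over the whole chromosome. A T UMI was present in 29.5% (26.7 to 32.5) and 40.5% (35.7 to 45.5) of the 976 and 400 members whose other chromosome 11 genes were low. Of the 107 and 166 others it was present in 10.3% (5.24 to 17.7) and 20.5% (14.6 to 27.4), and both intervals held the share of the comparison cells of their library. Among the 4 sets of members in the library labelled double knockout, the shares were 36.1% (29.5 to 43.0) in the 208 cells, 45.2% (35.9 to 54.8) in the 115, 40.4% (27.0 to 54.9) in the 52 and 56.0% (34.9 to 75.6) in the 25, with overlapping intervals. Whether chromosome share, cell state or depth set this difference was not tested.

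Around T, the streak list on other chromosomes had medians of 0.12 and 0.22 over 7 genes, with 5 and 6 above 0, beside 65.1% and 63.4% of all genes off chromosome 11. The medians turned to -0.09 in the first library among cells without a T UMI and to -0.01 in the second among cells over 0.8 on chromosome 6. Evx1, a homeobox gene of the posterior streak on chromosome 6, was at 0.65 and 0.81. Mixl1, another streak homeobox gene, lies on chromosome 1, which was higher in members. It was at 0.12 and 0.85, and at -0.11 in the second library among cells over 0.8 on chromosome 6. Whether the chromosome share set its value was not tested. A UMI of Cdx2, a regulator of the posterior body, was found after thinning in 11.2% (9.36 to 13.2) of members and 3.91% (3.43 to 4.43) of comparison cells of the first library, where neural-gene cells stood at 5.15%. In the second library it was found in 4.77% (3.17 to 6.86) and 3.24% (2.86 to 3.67), overlapping intervals, and in 1.38% of neural-gene cells. Foxa2, a marker of anterior streak and endoderm, was found in 3.32% (2.34 to 4.57) against 0.662% (0.474 to 0.901) in the first library, with 0.836% of neural-gene cells. In the second it was found in 3.36% (2.03 to 5.19) against 2.71% (2.36 to 3.10), intervals that overlap, and in 0 of 218 neural-gene cells, which allows a share of up to 1.68% by the exact binomial interval. The 9 primed epiblast genes had medians of 0.19 and 0.08, against 0.08 and 0.06 for all genes off chromosome 11. They turned to -0.14 and -0.22 with a minimum of 50 CPM, and the second to -0.04 with a minimum of 10000 UMIs and among members whose other chromosome 11 genes were low. Among them Fgf5 was at 0.49 and 0.33, Otx2 at 0.36 and 0.34 and Pim2 (a survival kinase) at -0.24 and -0.48.

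Naive pluripotency genes mark stem cells that have not left the ground state. Only Zfp42 and Klf2 passed the filter, at 0.59 and 0.41 in the first library and 0.90 and 0.40 in the second. The 166 members of the second library that were low on the markers alone held 51.0% of the members' Zfp42 UMIs and 68.7% of their Klf2 UMIs. In members whose other chromosome 11 genes were low, Zfp42 was at 0.20 and 0.39 and Klf2 at 0.39 and -0.74, and with a mitochondrial limit of 5% Klf2 was at -0.38 in the second library. Other genes of the marker-only cells are named after their values were seen. Dppa3, a germline and naive-state gene of the list below the filter, had 39 of the members' 46 UMIs (84.8%) in those of the second library. In the first library, the 107 such cells held genes outside the naive list. They had 31 of 33 Lgals3 UMIs (93.9%) and 35 of 40 H19 UMIs, and Krt18 at 143 against 17.8 CPM in comparison cells. Members of the second library had at most 2 UMIs of Lgals3 or H19.

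The highest genes off chromosome 11 beside T and the endoderm-linked ones were Pkdcc, Klhl9, Pmepa1, Epha7, Itgb5 and Tsix. Pkdcc, a secreted tyrosine kinase, stood at 47.3 against 17.5 CPM and at 63.0 against 25.2 CPM, log2 ratios of 1.44 and 1.33. Pmepa1, a target and inhibitor of TGF-beta signalling, was at 1.06 and 0.91, and Itgb5, an integrin subunit, at 1.22 and 0.85. Klhl9 and Epha7 (an ephrin receptor) were at 1.21 and 0.98, and at 1.15 and 0.87. Tsix, at 0.86 and 0.82, overlaps Xist on the other strand, and whether counting used strand is not given in the sources used here, which makes its value less certain. The lowest were Wfdc2, Magohb, Lpl, Klk8, Cbr3, Nqo1, Fmr1nb, Pla2g1b, Gmfg and Plac8. Magohb, a subunit of the exon junction complex encoded on chromosome 6, stood at 34.5 against 87.6 CPM and at 35.3 against 71.6 CPM. Nqo1 and Cbr3, quinone and carbonyl reductases, were at -1.13 and -0.75, and at -0.86 and -0.78.

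Stress lists showed small differences. The 14 ATF4 targets, genes of the amino acid and unfolded protein response, had medians of 0.11 and 0.09, close to all genes. Among them Vldlr was at 1.11 and 0.79. Its 6.35 and 9.62 CPM in comparison cells were under 10, so it passed the filter only through the members, where it was high. Heat shock genes had medians of 0.10 and -0.03 over 12 genes. Hspb1 was at 0.86 and 0.53, and at -0.04 in the second library without the endoderm-gene cells. Hspd1, a mitochondrial chaperone, lies on chromosome 1, which was higher in members. It was at 0.24 and 0.20, and at -0.01 in the second library among cells at or under 1.2 on chromosome 1. Whether the chromosome share set the value of Hspd1 was not tested. The Hedgehog list had medians of 0.28 and 0.11 over 6 genes, with its receptor and target Ptch1 at 0.51 and 0.51. Only 1 neural gene, Foxb1 (0.29 and -0.13), and 1 caudal gene, Nkx1-2 (0.19 and -0.25), passed the filter.

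Depth moved with membership and is given beside these results. Members held a median of 9481 UMIs and 3091 genes against 11190 and 3374 in comparison cells of the library labelled wild type. Those of the other library held 8004.5 and 2784.5 against 9149 and 2978. At 6000 UMIs per cell the medians were 2339 against 2322 genes and 2322 against 2306, so the gap in genes was not seen at equal depth. Mitochondrial shares were 3.88% against 3.79% and 4.17% against 3.99%. A doublet score marked 2.40% of members against 7.07% of comparison cells, and 2.65% against 7.98%. Among the kept barcodes, 18 occurred in both libraries and no barcode was a member in both.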

How the data were processed

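Day 2.5 gastruloids of 2 genotypes were profiled with 10x Genomics single-cell 3′ chemistry, 1 library each. The values the authors deposited are raw counts of UMIs for every gene in every barcode. The labels' protocol names Cell Ranger and the submitters' processing notes list STARsolo, STAR 2.7.9a, Seurat 5.1.0 and mm10. Which of these wrote the deposited matrices, and whether counting used strand, is not given in the sources used here. The matrices list all 6794880 barcodes with 104083993 and 103187025 UMIs, so cells were called here by the 6000 UMI minimum, with 3 and 0 barcodes over the mitochondrial limit. Gene positions are from GENCODE M21 on GRCm38 (mm10), matched by ID for 32235 of 32285 genes.

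UMIs were summed over members and over comparison cells of each library and scaled to CPM, and log2 ratios used a pseudocount of 0.5 UMIs. Cells are not replicates, so nothing was tested. Genes were compared at a mean of at least 10 CPM over both cell groups in each library, and a ratio at or below 0.8, or at or above 1.25, in both libraries was counted. A gene near 10 CPM could pass through its higher group alone, which favours large ratios among such genes. To compare shares of cells with a UMI, each cell was thinned to 6000 UMIs. Doublets were kept in the main result and marked by a score against simulated doublets, the highest 0.8% per 1000 cells, and removed in an alternative. The calculation of sums, intervals and counts was tried on data simulated from the mean profile of each library. Such data do not show how the intervals perform on cells that differ in state or depth. Python 3.11.15, numpy 2.4.6, scipy 1.17.1, pandas 2.3.3, scikit-learn 1.9.0 and matplotlib 3.10.9 were used.

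The members and the 20 gene lists were chosen with earlier results of these data known. Named genes are a fixed set on chromosome 11 with Sp5, Sp8 and T, the 10 lowest and 5 highest of chromosome 11, the 10 lowest and 10 highest elsewhere by the ratio nearer 0, 3 per list, and the 3 lowest and 3 highest markers. Other genes of a list are named where its chromosome 11 part is given in full. The 14 other settings tried changed the UMI minimum, mitochondrial and member limits, doublets, thinning, the median used, the comparison limit, scaling, pseudocount, CPM minimum and the cells entering.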

Additional observations from a re-analysis of the deposited data

How the results depend on the processing

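The first library is the one labelled wild type and the second the one labelled double knockout. A value counted as moved when it lay outside the 95% interval of the reported value, and a count of genes when it changed by over 1.5 times. For shares of cells and ratios of UMI sums this is the counting interval. Intervals of medians over genes were taken from the ranked genes as if these were independent, so they reflect spread over genes. Counting intervals are narrow, so small shifts count. Beside 14 other settings, 3 were added after seeing the data: members with the other chromosome 11 genes also low, no cells with 3 or more endoderm genes, and no cells over 1.2 on chromosome 1. The name without low chromosome 6 stands for cells over 0.8 on it. Of the 295 first-library members kept there, 182 had a median share of 0.840, so lower values were not all removed. The cause of a shift was not tested. Medians and summed ratios of chromosome 11 stayed below 0 in both libraries under every alternative run, and the member share stayed higher in the first library where the whole library or a selection by T, endoderm genes or chromosome 1 was used. Among cells over 0.8 on chromosome 6 that order turned, with 295 of 6387 cells (4.62%, 4.12 to 5.16) in the first library and 387 of 7669 (5.05%, 4.57 to 5.56) in the second, intervals that overlap.

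The share of members in the first library was 9.92% at 10000 UMIs, 7.82% with a member limit of 0.75 and 12.0% with the other genes low. The second library's share was 7.04% at 4000 UMIs, 3.96% at 10000 UMIs, 3.72% with the limit of 0.75 and 6.87% after thinning. It was 4.27% there with the other genes low and 4.58% without high chromosome 1.

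Members low on the other chromosome 11 genes made up 94.0% of the first library's members at a mitochondrial limit of 5%, 93.7% at the limit of 0.75, 86.2% after thinning, 87.5% without T UMIs and 64.7% without low chromosome 6. Second-library shares were 66.4% at 10000 UMIs, 79.5% at 5% mitochondrial UMIs, 84.2% at the limit of 0.75 and 59.9% after thinning. There they were 62.6% without T UMIs, 60.2% without low chromosome 6 and 62.2% without high chromosome 1.

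The median log2 ratio of chromosome 11 genes in the first library was -0.43 at 5% mitochondrial UMIs, -0.42 at the limit of 0.75, -0.45 when scaled off chromosome 11 and -0.37 without T UMIs. It was -0.21 without low chromosome 6, -0.42 from 50 CPM and -0.47 with the other genes low. Second-library medians were -0.27 at 10000 UMIs, -0.37 at 5% mitochondrial UMIs, -0.40 at the limit of 0.75, -0.26 after thinning, -0.36 scaled off the chromosome and -0.27 without T UMIs. They were -0.24 without low chromosome 6, -0.29 from 1 CPM, -0.37 from 50 CPM, -0.50 with the other genes low and -0.24 without high chromosome 1.

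Summed over chromosome 11, the log2 ratio of the first library was -0.44 at 5% mitochondrial UMIs and at the limit of 0.75, -0.43 without doublets and against cells over 0.95, and -0.40 after thinning. It was -0.48 scaled off the chromosome and with the other genes low, -0.41 without T UMIs, -0.30 without low chromosome 6 and -0.42 without high chromosome 1. The second library's sum was -0.33 at 4000 UMIs, -0.29 at 10000 UMIs, after thinning and without T UMIs, -0.38 at 5% mitochondrial UMIs, -0.43 at the limit of 0.75 and -0.34 without doublets. It was -0.39 scaled off the chromosome, -0.27 without low chromosome 6, -0.50 with the other genes low and -0.28 without high chromosome 1.

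Genes at or below 0.8 in both libraries numbered 121 without low chromosome 6, 148 from 50 CPM, where fewer genes were compared (265), 411 with the other genes low and 176 without high chromosome 1. Genes at or above the upper limit in both numbered 3 at 10000 UMIs and without T UMIs, 2 after thinning and without low chromosome 6, 10 from 1 CPM and 0 without endoderm-gene cells.

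Off chromosome 11 the first library's median was 0.090 at the limit of 0.75, 0.021 scaled off chromosome 11, 0.099 without low chromosome 6, 0.088 from 1 CPM and 0.056 from 50 CPM. The second library's was 0.066 at 10000 UMIs, 0.068 at the limit of 0.75, 0.010 scaled, 0.070 without T UMIs, 0.083 without low chromosome 6 or high chromosome 1, 0.079 from 1 CPM and 0.031 from 50 CPM.

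Low chromosome 6 was found in 76.4% of first-library members at 5% mitochondrial UMIs, 75.6% at the limit of 0.75, 65.9% after thinning and 80.4% with the other genes low. Among second-library members it was found in 37.2% at the limit of 0.75, 27.6% after thinning and without T UMIs, 41.8% with the other genes low and 15.3% without high chromosome 1. High chromosome 1 was found in 8.23% after thinning and 3.05% without low chromosome 6 in the first library. In the second it was found in 32.7% at the limit of 0.75, 21.1% without T UMIs, 8.53% without low chromosome 6 and 35.0% with the other genes low.

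Of the list medians off chromosome 11, 9 changed sign under at least 1 setting, 18 values in all: primed epiblast and primitive streak in both libraries and, in the second, p53 targets, S phase, heat shock, respiratory chain and splicing factors. Only for splicing factors, at -0.020 scaled off chromosome 11, did the reported interval lie off 0. They were at 0.076 there with the other genes low, and in the first library at 0.030 scaled and 0.031 without low chromosome 6. G2/M genes were at 0.36 at 10000 UMIs and 0.17 scaled in the first library, and at 0.15 at 4000 UMIs and at the limit of 0.75 and 0.27 without low chromosome 6 in the second. Ribosomal protein genes were at 0.024 scaled and 0.010 without low chromosome 6 in the first library, and at 0.014, 0.027 and, without high chromosome 1, 0.028 in the second. Proteasome genes were at -0.096 scaled and -0.093 without low chromosome 6 in the first library, and at -0.12 scaled, -0.11 without T UMIs and -0.027 with the other genes low in the second. Respiratory chain genes were at -0.068 scaled and -0.053 without low chromosome 6 in the first library and -0.043 scaled in the second. Second-library S phase genes were at -0.095 scaled and p53 targets at -0.051 at 10000 UMIs.

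Of 3240 values of named genes under alternatives, 82 had the other sign, 427 moved and 12 had the other sign where the reported interval lay off 0. In the second library these 12 included Mdm2 (0.058 at 4000 UMIs), Psme2 (0.041 at 10000 UMIs), Klf2 (-0.38 at 5% mitochondrial UMIs and -0.74 with the other genes low), Mixl1 (-0.11 without low chromosome 6), Hspb1 (-0.044 without endoderm-gene cells) and Hspd1 (-0.014 without high chromosome 1). In the first library they were Xpo1 (0.0033 without T UMIs, 0.013 without low chromosome 6) and Sp5 (-0.034 without low chromosome 6). Sparc changed sign in both, to -0.36 and -0.31, without endoderm-gene cells.

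Each genotype has 1 library, so a difference between the libraries cannot be told apart from one between cultures. No paired analysis was possible because no library has a replicate. Ambient RNA was not removed, and a cell without a UMI of a gene is not shown to lack its transcript. The rule needs at least 6000 UMIs, which leaves out shallower cells.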
